A study of Mus musculus with 3 samples.

Results

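The cells studied were splenic T cells, and the genes described are those of CD2 and its ligand CD48, the scavenger receptor pair CD5 and CD6, the SLAM receptors Slamf1, Slamf6, Ly9, Cd84 and Cd244, and Sh2d1a, which encodes the adaptor SAP. These receptor and adaptor genes were chosen by name, as 10 of the 55536 gene entries of the deposited gene tables, and all 10 were found (Cd244 is listed under its current symbol, Cd244a). Total RNA was sequenced from T cells of the spleen (m.CD3_spleen in the labels), given as primary cells of adult virgin females, 66 days of age, of the strain B6CASTF1/J, whose mother is C57BL/6 and whose father is CAST/EiJ. The 3 libraries, replicates 1, 2 and 3, form 1 group without treatment and without a control group, so the comparisons below are between genes, between forms of a gene and between libraries. The labels number them as biological replicates and give them 3 biosample records but 1 donor record, and do not say that they came from separate animals. Every SD and p-value therefore covers differences among these libraries alone, and part of them may be technical.

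CD2 is an adhesion and costimulatory receptor that binds CD48 in the mouse, and CD5 and CD6 are built of scavenger receptor cysteine-rich domains and recruit signalling proteins to the T-cell receptor. SLAM receptors bind themselves or, in the case of CD244, bind CD48. Their cytoplasmic tails carry tyrosine motifs that dock SAP, which in turn recruits the kinase Fyn.

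The libraries held 16.88, 14.99 and 16.20 M estimated counts over genes, of which the 10 genes took 0.105%, 0.105% and 0.101%. Levels are given in TPM, a relative abundance scaled by transcript length and by library, and nuclear protein-coding genes held 33.4% to 35.1% of all TPM. The T-cell label was checked on 7 markers (Cd3e, Cd3d, Cd3g, Cd247, Trac, Trbc2 and Lck), all at 10 TPM or more in every library, with a summed level of 2186 to 2348 TPM. Summed levels of the lists for other cells were 8.60 to 15.5 TPM for B cells, 22.1 to 28.8 for natural killer cells, 23.95 to 29.4 for monocytes and macrophages, 2.65 to 4.21 for dendritic cells, 5.42 to 6.00 for neutrophils, 2.91 to 4.94 for mast cells and basophils, 3.81 to 6.54 for platelets, 0.760 to 2.19 for plasma cells and 32.7 to 63.8 for erythroid cells. Of the markers in these lists, 3 reached 10 TPM in all libraries (Lyz2, Hba-a1 and Hbb-bs, named here after their values were seen), and only the plasma cell marker Tnfrsf17 was at 0 in every library. In these bulk samples, more cells that express a gene and more RNA per cell cannot be told apart.

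Of the 10 genes, 8 stood at 10 TPM or more in all 3 libraries, a level that 10.9% of all gene entries reached. The higher mark of 50 TPM was passed by 4 of them (Cd2, Cd5, Cd6 and Slamf6) against 2.37% of all entries, and the lower mark of 1 TPM by 9 of them against 21.3%. The median of the 10 means was 48.8 TPM, beside a median of 13.5 TPM over the 9831 nuclear protein-coding genes at 1 TPM or more. From the highest to the lowest mean the order was Cd2, Cd5, Cd6, Slamf6, Cd48, Cd84, Ly9, Sh2d1a, Slamf1 and Cd244. Neighbours in this order whose ranges over the libraries overlapped were Cd48 and Cd84, and Cd84 and Ly9. Compared within libraries, Cd48 was above Cd84 in 2 of 3, and this order turned in the second quantification, so these genes could not be ranked. Cd84 was above Ly9 in 3 of 3 libraries in both quantifications, by 0.08 ± 0.05 and 0.28 ± 0.04 on the log2 scale. Cd48 lay above Ly9 in 3 of 3 libraries, and their ranges did not overlap. The other 7 neighbouring pairs did not overlap, and each had the same gene on top in 3 of 3 libraries. An exact two-sided sign-flip permutation test over 3 libraries cannot go below p = 0.25. These 7 pairs and Cd84 over Ly9 had this sign-flip p (0.281 after Benjamini-Hochberg adjustment over 9 pairs). The test therefore cannot show a significant order with 3 libraries.

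**Figure D1:**
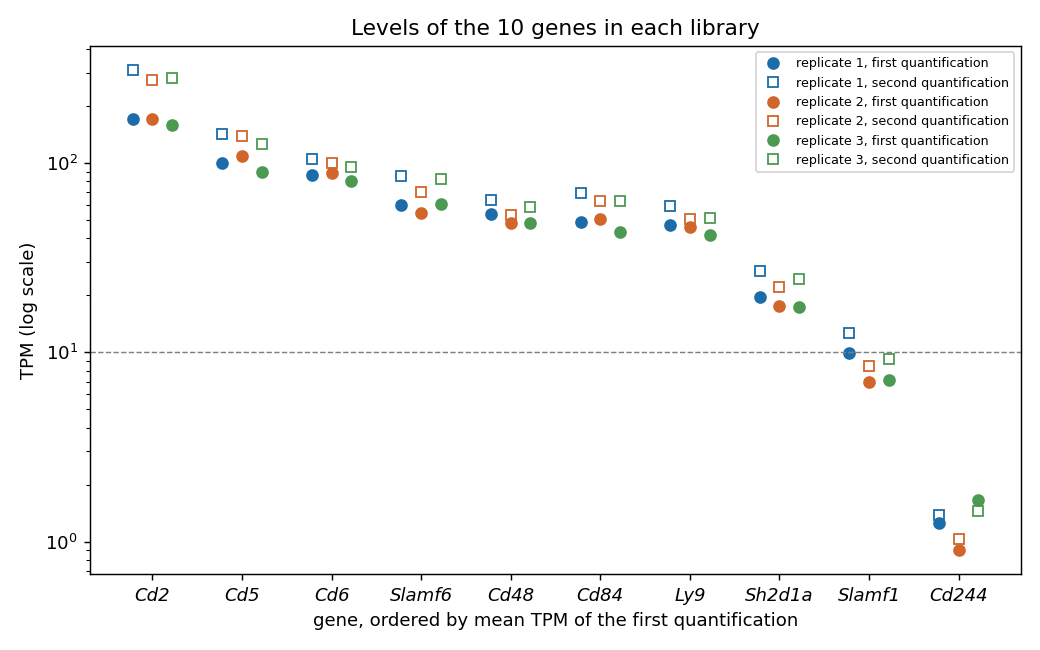
Level of each gene in TPM (log scale) in replicates 1, 2 and 3, with filled circles for the first quantification and open squares for the second. The dashed line marks 10 TPM. Cd2 lies at the top with 159 to 172 TPM in the first quantification, Cd48, Cd84 and Ly9 lie close together between 41.55 and 53.6 TPM with Cd84 overlapping both others, and Cd244 lies at the bottom with 0.90 to 1.66 TPM.

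Cd2, the adhesion receptor (ENSMUSG00000027863.8, mm10 chr3:101275899-101287939, minus strand), was at 169.7, 171.8 and 158.7 TPM in replicates 1, 2 and 3, a mean of 166.7 ± 7.02 (SD, n = 3). This was above 97.5% of the detected nuclear protein-coding genes. The 3 values lay within a 1.08-fold range, the narrowest of the 10 genes. Its ligand Cd48, a protein held in the membrane by a lipid anchor (ENSMUSG00000015355.13, chr1:171682009-171705258, plus strand), was at 53.6, 48.2 and 48.3 TPM, a mean of 50.01 ± 3.11. By whole genes, the receptor transcript therefore exceeded that of its ligand in 3 of 3 libraries, by 1.74 ± 0.09 on the log2 scale or 3.34-fold. The exact sign-flip permutation p was 0.25, the smallest possible. The size of this gap depended on the processing. It was 2.31 ± 0.06 on the log2 scale in the second quantification. On protein-coding entries of the first, Cd2 was at 123.7 ± 6.35 and Cd48 at 50.02 ± 3.11 TPM.

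The 3 annotated transcripts of Cd2 were weighted differently by the 2 quantifications that the authors deposited, the first made from transcriptome alignments and the second from reads against an index. The only protein-coding entry, Cd2-201, was at 123.7 ± 6.35 TPM in the first and 130.2 ± 12.4 TPM in the second, so the coding level was close in both. The retained-intron entry Cd2-202, an incomplete model of 659 bases, was at 14.8, 19.9 and 12.9 TPM in the first and at 127.3, 118.7 and 123.6 TPM in the second. A second retained-intron entry, Cd2-203, held 16.3% and 12.1% of the gene's TPM. The protein-coding share of Cd2 was 74.2% ± 1.22 in the first and 45.1% ± 1.83 in the second quantification, and the whole gene stood at 288.3 ± 19.2 TPM in the second, 1.73 times the first. In 1 of the 10 genes, Cd2, the total differed by over 1.5 times between the tables. The first quantification took the effective length of an entry (the number of positions where a fragment can start) as its length minus 100 bases and the second as its length minus 285 bases for Cd2-202. The part of this setting in the difference was not tested.

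Cd48 was close to a single form. Cd48-202, with 240 codons, took 99.7% ± 0.560 of the gene's TPM, and 99.2% ± 0.688 in the second quantification. The other entry, Cd48-201, leaves out exon 3 (chr1:171699384-171699650, 267 bases or 89 codons, in frame) and was at 0.52 TPM in replicate 1 and at 0 in replicates 2 and 3.

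Cd5, a receptor known to dampen signals of the T-cell receptor (ENSMUSG00000024669.8, chr19:10717116-10739002, minus strand), was at 99.55, 109.0 and 89.3 TPM, a mean of 99.3 ± 9.85. Replicate 2 was highest and replicate 3 lowest, 1.22-fold apart. Its neighbour Cd6, 50.3 kb away on the same strand (ENSMUSG00000024670.17, chr19:10789341-10830058), was at 86.8, 89.0 and 80.1 TPM, a mean of 85.3 ± 4.60, with the same 2 libraries at the top and the bottom. Cd2 and Cd84, which lie on other chromosomes, had this order of libraries too. Cd6 was below Cd5 in 3 of 3 libraries, by 0.22 ± 0.07 on the log2 scale, or 1.16-fold lower than Cd5 (exact sign-flip permutation p = 0.25, the smallest possible). The log2 gap was -0.44 ± 0.04 in the second quantification, on the same side. On protein-coding entries of the first it was -0.65 ± 0.08, with Cd6 at 57.4 ± 6.05 and Cd5 at 90.3 ± 10.1 TPM.

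Cd5 was carried by 4 entries. The full-length Cd5-201, with 494 codons, held 64.5% ± 1.41 of its TPM, and the incomplete Cd5-202 held 17.4% ± 2.79. Cd5-204 lacks an internal coding segment of 135 bases, which is 45 codons in frame. Among the 2 complete coding entries it took 11.2%, 12.5% and 12.8% in the 3 libraries, a mean of 12.2% ± 0.833, and 14.03% ± 0.716 in the second quantification. The short form was thus the smaller one in every library of both tables. The retained-intron entry Cd5-203 held 9.18%, leaving a protein-coding share of 90.8% ± 1.69.

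Cd6 is known to be spliced around exon 5, which encodes the third and membrane-proximal scavenger receptor domain, the part that binds the ligand ALCAM (CD166). In the annotation, exons 3, 4 and 5 of Cd6-203 are 348, 312 and 303 bases long, each a multiple of 3 in the same phase, and each holds 8 cysteine codons, so leaving out exon 5 (chr19:10797676-10797978) removes 101 codons in frame. The junctions that tell the forms apart are printed below from the GENCODE M21 transcripts (mm10, minus strand, 5′ to 3′), with 24 bases on each side and the downstream exon in capitals. The first pair marks inclusion of exon 5 and the next its omission.
Cd6 exon 4 to exon 5: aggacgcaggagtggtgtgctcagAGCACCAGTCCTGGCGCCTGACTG
Cd6 exon 5 to exon 6: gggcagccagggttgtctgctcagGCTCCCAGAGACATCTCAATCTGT
Cd6 exon 4 to exon 6: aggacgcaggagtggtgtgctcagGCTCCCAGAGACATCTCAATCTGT
The annotated reference is that of C57BL/6J, with the alleles of the CAST/EiJ father not analysed here.

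Most of the Cd6 signal that could be assigned to either form included exon 5. Entries with exon 5 (Cd6-203 and Cd6-202) summed to 50.9, 54.1 and 47.0 TPM, and entries that join exon 4 to exon 6 (Cd6-201 and Cd6-205) to 21.2, 16.8 and 16.4 TPM. Inclusion was therefore 70.6%, 76.3% and 74.1% in the 3 libraries, a mean of 73.7% ± 2.86 (SD, n = 3). The second quantification gave 85.6%, 85.7% and 81.6%, a mean of 84.3% ± 2.33, and its range did not overlap with the first. The skipping entry Cd6-201, a retained-intron model, held 11.8%, 12.3% and 16.1% of the gene's TPM in the first and 0.0161%, 5.95% and 9.91% in the second. With protein-coding entries alone, inclusion was 88.5% ± 5.58 and 90.7% ± 4.40 in the 2 tables. The skipped form then rests on Cd6-205, an incomplete model of 982 bases, which was at 10.9, 5.87 and 3.48 TPM, highest in replicate 1 and lowest in replicate 3, as it was in the second quantification. The tables hold no junction reads, and these values rest on how reads were divided among transcript models.

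A second coding exon of Cd6 also varied. Cd6-202 lacks exon 9 (chr19:10792828-10792944, 117 bases or 39 codons, in frame), and its distinguishing junction is shown beside that of the longer form, again with the downstream exon in capitals.
Cd6 exon 8 to exon 9: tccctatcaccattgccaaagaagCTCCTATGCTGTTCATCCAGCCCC
Cd6 exon 8 to exon 10: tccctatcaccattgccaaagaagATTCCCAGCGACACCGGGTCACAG
Exon 9 was included at 79.7%, 88.1% and 80.2%, a mean of 82.7% ± 4.69, and at 88.7% ± 3.85 in the second quantification. These values count the retained-intron entries Cd6-201 and Cd6-204 as including it. With protein-coding entries alone, inclusion was 75.5% ± 6.67 and 85.5% ± 5.63 in the 2 tables. The complete entry with both exons, Cd6-203 with 665 codons, was the leading one in both tables, at 44.9% ± 4.94 and 57.1% ± 6.16 of the gene's TPM. Retained-intron entries took much of the rest: Cd6-201 held 13.4%, Cd6-204 held 11.0% and Cd6-206 held 8.36%. The protein-coding share of Cd6 was 67.2% ± 4.09 in the first and 73.8% ± 7.24 in the second quantification.

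**Figure D2:**
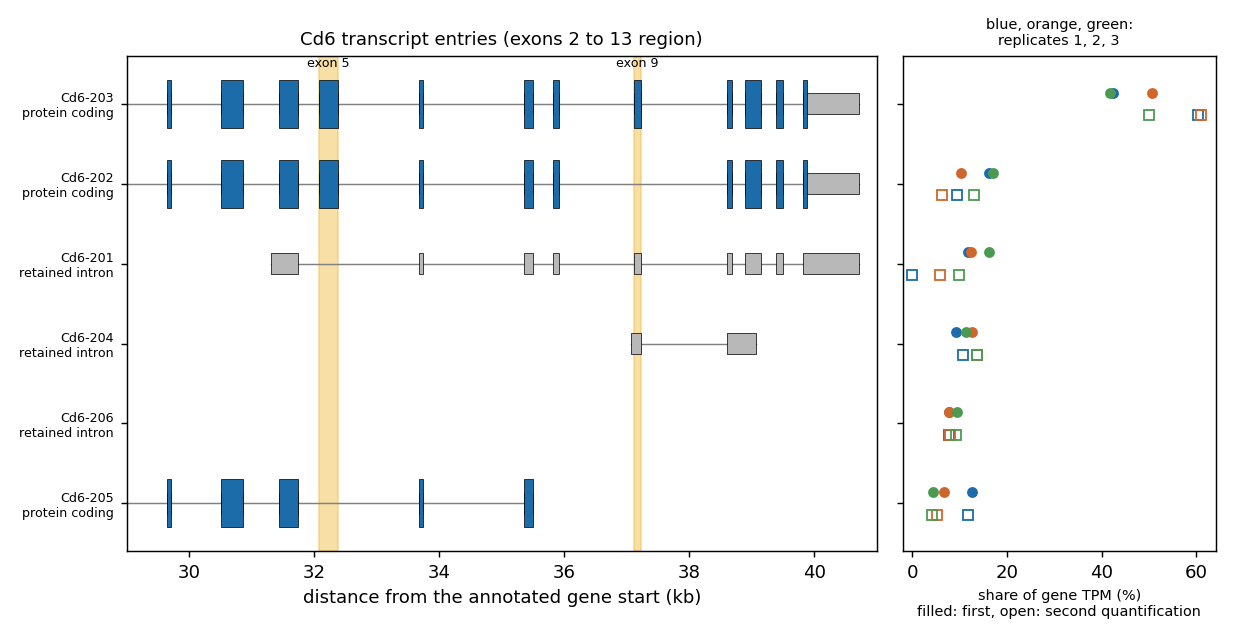
Annotated Cd6 transcripts drawn to scale from exon 2 to exon 13 (distance from the annotated gene start in kb, coding exons in blue, exons outside the coding sequence in grey, exons 5 and 9 shaded) and, at the right, the share of the gene's TPM of each entry in the 3 libraries. Cd6-206 lies upstream of the stretch drawn. Cd6-203, with both exons, leads in each library of both quantifications, and Cd6-201 lies at 11.8% to 16.1% in the first and 0.0161% to 9.91% in the second.

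The SLAM receptors lie in a row on chromosome 1: Cd244, Ly9, Cd48, Slamf1, Cd84 and Slamf6, in this order, span 394 kb (chr1:171559193-171953170) and have mean levels from 1.27 TPM (Cd244) to 58.4 TPM (Slamf6). Ly9 lies within the span of Cd244 on the opposite strand, and the 2 genes share no exonic base. The deposited posterior SD of the gene count was 0 for all 10 genes in all 3 libraries.

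The SLAM receptors were compared by their SAP-docking motif, searched in frame on the coding strand as a threonine codon, any codon, a tyrosine codon, any 2 codons, and a valine or isoleucine codon. Matches were counted in the later part of the coding sequence, from its middle codon to its end, and the bounds of the tail were not used. At least 2 matches in the later part of the coding sequence were found in all 5 SLAM receptors, and in 35 of 21534 protein-coding genes of the annotation (0.163%), the receptors not left out. The motif was chosen because SLAM tails are known to carry it, so this contrast is a description and not a test. None was found there in Cd2, Cd5, Cd6 or Cd48. A match is a description of the sequence and not evidence of binding. The matches of Slamf6, the receptor whose tail differs between transcripts, are printed from GENCODE M21 with the tyrosine codon in capitals and beside them those of Slamf1, after which the family is named.
Slamf6-207 codon 293: actgtgTATgcacaagtc
Slamf6-207 codon 317: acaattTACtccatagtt
Slamf1-201 codon 286: actattTATgcccaagta
Slamf1-201 codon 333: acagttTATgccagtgtg

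Slamf6, a homophilic receptor also known as Ly108 (ENSMUSG00000015314.10, chr1:171917515-171953170, plus strand), was at 59.9, 54.6 and 60.7 TPM, a mean of 58.4 ± 3.31, and by the whole gene it was the highest of the SLAM receptors. Replicate 2 was the lowest. On protein-coding entries alone Slamf6 was at 44.2 ± 3.43 and Cd84 at 47.2 ± 3.64 TPM, and Cd84 was the higher in 2 of 3 libraries in both quantifications. It lay above Cd48 in 3 of 3 libraries, by 0.22 ± 0.09 on the log2 scale, and this order turned when only protein-coding entries were counted (-0.18 ± 0.10).

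The 3 main coding forms of Slamf6 differed in their tails. Slamf6-201 ends at a proximal exon 8 (chr1:171942578-171943910) and Slamf6-207 at a distal one (chr1:171947999-171948075), which replaces a short coding end by one that is 20 codons longer. Both coding ends are printed, with the stop codon in capitals.
Slamf6 proximal coding end: gccgaatactctTAA
Slamf6 distal coding end: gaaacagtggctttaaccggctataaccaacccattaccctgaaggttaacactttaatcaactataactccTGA
Slamf6-204 also has the distal end but lacks exon 7 (chr1:171941625-171941696, 72 bases or 24 codons, in frame). Exon 7 holds the motif at codon 317, so Slamf6-204 keeps 1 of the 2 matches, that at codon 293 in exon 6.

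The proximal form led by TPM. Slamf6-201 was at 26.4, 20.0 and 22.9 TPM, which is 44.2%, 36.6% and 37.6% of the gene's TPM and a mean of 39.5% ± 4.10. Slamf6-207 was at 9.89, 8.39 and 10.2 TPM, 16.2% ± 0.747 of the gene, and Slamf6-204 at 7.02, 9.23 and 9.53 TPM, 14.8% ± 2.71. Replicate 1 was highest for the proximal form and lowest for Slamf6-204. Among these 3 forms the proximal end took 61.0%, 53.2% and 53.7%, a mean of 55.9% ± 4.38, and 49.7% ± 4.89 in the second quantification. By estimated counts, which are not scaled by length, it took 50.5%, 46.3% and 45.3%, a mean of 47.4% ± 2.74.

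Exon 7 was included at 83.8%, 75.5% and 77.6%, a mean of 79.0% ± 4.33, and at 69.8% ± 5.23 in the second quantification. Replicate 1 was the highest in both. Of the distal forms alone, the one with exon 7 took 58.5%, 47.6% and 51.6%, a mean of 52.6% ± 5.49, and 40.3% ± 5.20 in the second quantification. These shares set a model of 5729 bases, Slamf6-207, against one of 984 bases, Slamf6-204, which is annotated without untranslated ends. By estimated counts exon 7 inclusion was 93.4% ± 1.51. The other entries were Slamf6-206, a processed transcript, at 11.8% of the gene's TPM, the retained-intron entries Slamf6-205 and Slamf6-202 at 7.30% and 5.28%, and the incomplete Slamf6-203 at 5.17%, and the protein-coding share was 75.6% ± 1.93.

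**Figure D3:**
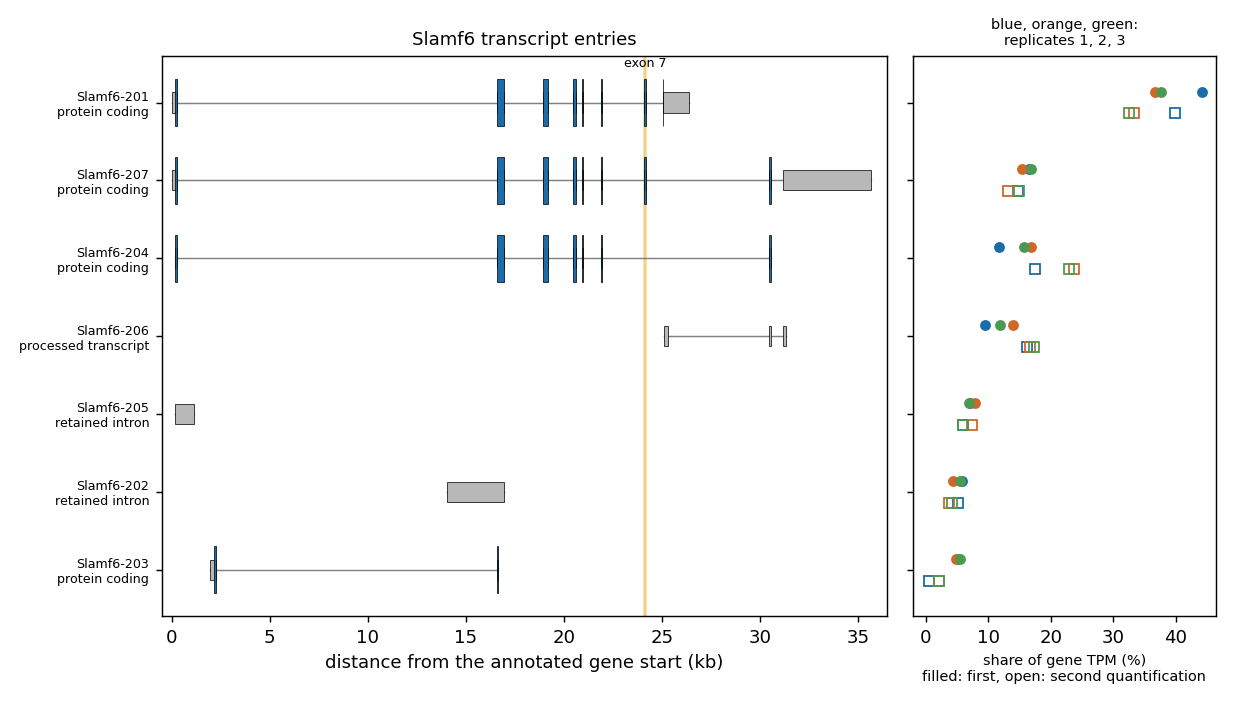
Annotated Slamf6 transcripts drawn to scale (distance from the annotated gene start in kb, coding exons in blue, other exonic sequence in grey, exon 7 shaded) and, at the right, the share of the gene's TPM of each entry in the 3 libraries and both quantifications. Slamf6-201, with the proximal end, leads in every library at 36.6% to 44.2% in the first quantification, and Slamf6-204, without exon 7, lies at 11.7% to 16.9%.

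Cd84, a homophilic SLAM receptor (ENSMUSG00000038147.13, chr1:171839697-171890718, plus strand), was at 48.9, 50.4 and 43.2 TPM, a mean of 47.5 ± 3.76. It was near Cd48, which was higher in 2 of 3 libraries (0.08 ± 0.12 on the log2 scale, exact sign-flip permutation p = 0.5), while in the second quantification Cd84 was higher in all 3 (-0.16 ± 0.08). Its coding entries held 99.5% ± 0.886 of its TPM. Cd84-205 led at 50.9% ± 1.01. Cd84-204 uses an acceptor 3 bases apart, which removes 1 codon, and took 29.3%, 23.2% and 38.1% of the 3 full-length forms, a mean of 30.2% ± 7.52, and 30.0% ± 4.23 in the second quantification. Cd84-203, which ends early after 140 codons, held 14.8% ± 2.08. Cd84-201 was at 4.33, 8.09 and 0 TPM, and at 7.88, 10.8 and 3.88 TPM in the second quantification, so the 0 in replicate 3 was not shared by both tables.

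Ly9, the SLAM receptor CD229 (ENSMUSG00000004707.14, chr1:171588624-171607410, minus strand), was at 47.2, 45.8 and 41.55 TPM, a mean of 44.9 ± 2.96. It lay below Cd84 in each library by 0.08 ± 0.05 on the log2 scale, with overlapping ranges. Ly9-202, with 654 codons, held 70.9% ± 4.82 of its TPM in the first quantification and 63.2%, 62.1% and 37.0% in the second. The entry annotated for nonsense-mediated decay, Ly9-204, held 15.5% ± 1.27 in the first and 6.85%, 25.5% and 33.7% in the second. The 2 entries are 2488 and 2480 bases long, and in the second quantification replicate 3 was low for the one and high for the other. Exon 2 (chr1:171604990-171605319, 330 bases or 110 codons, in frame) was included at 95.3% ± 2.51, and at 90.4% ± 8.31 in the second quantification. Ly9-201, the entry without exon 2, held 5.36%, 6.78% and 1.901% in the first quantification, and in the second 15.1% and 13.6% in replicates 1 and 3 and close to 0 in replicate 2. Ly9-203 held 3.93% and 10.3% in the 2 tables.

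Slamf1, the self-ligand SLAM itself (ENSMUSG00000015316.11, chr1:171767127-171801184, plus strand), was at 9.92, 6.93 and 7.10 TPM, a mean of 7.98 ± 1.68. Replicate 1 stood above the other 2, which were close together, and the same library was highest in the second quantification (12.7, 8.48 and 9.19 TPM). Its coding entry Slamf1-201 held 75.5% ± 4.34 and the retained-intron entry Slamf1-202 held 24.5%, nearly the same as in the second quantification (75.0% and 25.0%).

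Cd244, the receptor 2B4 that binds CD48 and is best known from natural killer cells (ENSMUSG00000004709.14, chr1:171559193-171609746, plus strand), was at 1.25, 0.90 and 1.66 TPM, a mean of 1.27 ± 0.380. It rested on 60, 47 and 57 counts, with exact Poisson 95% intervals of 45.8 to 77.2, 34.5 to 62.5 and 43.2 to 73.9 that cover counting error only and overlap. The order of the libraries by TPM was not that by counts. At this depth the forms could not be told apart: Cd244a-201, the coding entry, was at 0.47, 0.66 and 0 TPM in the first quantification and at 1.13, 1.04 and 1.01 TPM in the second. The coding level thus differed 2.81-fold between the tables, while the gene total differed 1.02-fold. Retained-intron entries Cd244a-204 and Cd244a-202 held 38.5% and 11.2% in the first table and 0.487% and 5.11% in the second, and Cd244a-203, annotated for nonsense-mediated decay, held 13.1% and 10.7%. The 5 natural killer markers were all at 1 TPM or more in every library and summed to 28.8, 22.1 and 24.4 TPM, and the part of such cells in the level of Cd244 was not tested. The label names CD3, which natural killer cells lack at their surface, and how the cells were selected was not analysed here.

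Sh2d1a, the SAP adaptor (ENSMUSG00000005696.11, chrX:42502453-42529330, plus strand), was at 19.7, 17.5 and 17.3 TPM, a mean of 18.2 ± 1.34, which was above 60.1% of the detected nuclear protein-coding genes. The adaptor thus stood below the receptors Slamf6, Cd84 and Ly9 and above Slamf1 and Cd244 in every library. It was 2.47-fold below Ly9 and 2.30-fold above Slamf1. Sh2d1a-201, with 126 codons, held 82.8% ± 3.04, and the incomplete processed transcript Sh2d1a-205 held 7.28%. Sh2d1a-207, which also has 126 codons, was at 0 in all libraries of the first quantification and held 11.4% ± 1.23 in the second. The gene shares 1465 exonic bases with Tenm1 on the opposite strand, which was at 0 TPM in all libraries, and whether the counting used strand is not given in the sources used here.

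**Figure D4:**
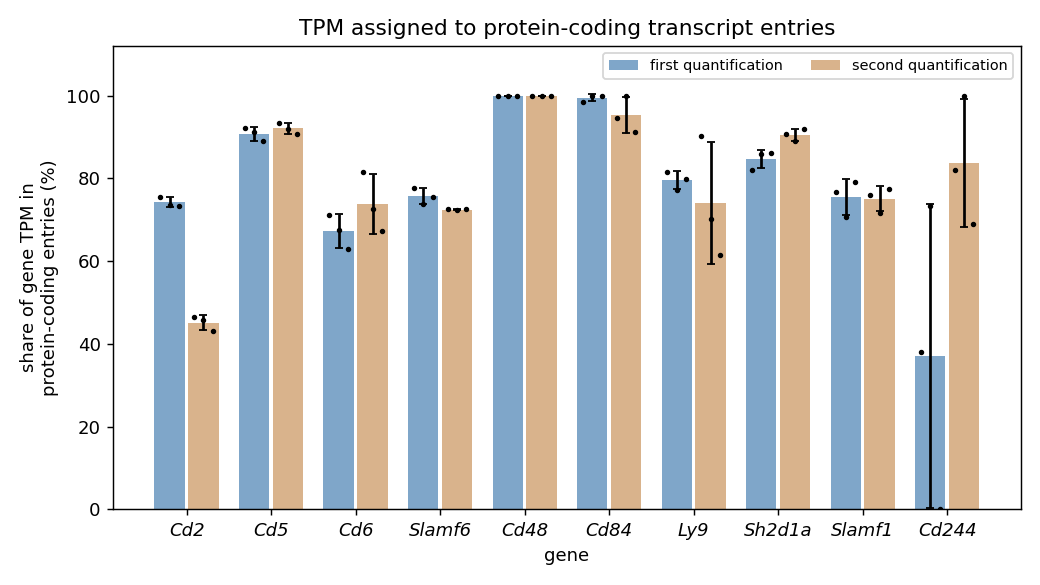
Share of each gene's TPM in entries annotated as protein coding (bars, mean; whiskers, SD over the 3 libraries; dots, single libraries) in the first and second quantification. Cd48 is at 100% in both, Cd2 is at 74.2% and 45.1%, and the 3 values of Cd244 in the first quantification spread from 0% to 73.3%.

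Across the 10 genes, 45 transcript entries are annotated, of which 26 are protein coding. The leading entry was the same in both quantifications for 9 genes, with Cd244 the exception. A protein-coding share of at least 90% in both tables was seen for 3 genes (Cd5, Cd48 and Cd84). For Cd6, Slamf6, Ly9 and Slamf1 the share lay between 67.2% and 79.5% in the first quantification, the rest being mostly retained-intron entries, the decay entry of Ly9 or the processed transcript of Slamf6.

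**Figure D5:**
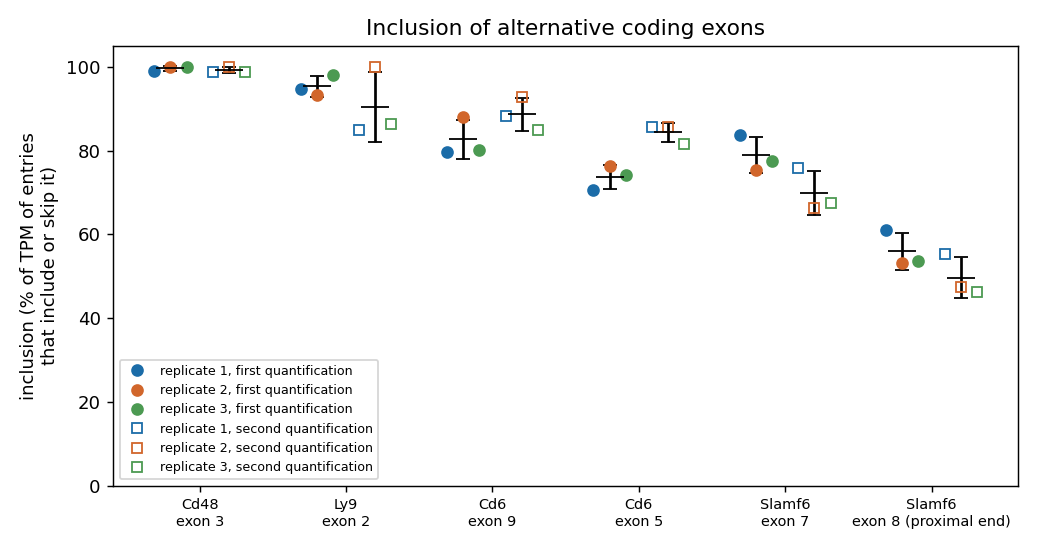
Inclusion of 6 alternative coding exons of Cd48, Ly9, Cd6 and Slamf6 as a percentage of the TPM of entries that include or skip them, in each library (filled, first quantification; open, second; bars, mean and SD of the 3 libraries). Exon 3 of Cd48 is near 100%, exon 5 of Cd6 is at 73.7% and 84.3% in the 2 quantifications, and the proximal end of Slamf6 is at 55.9% and 49.7%.

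Spread between the libraries was tested for every gene by setting its residual dispersion against genes of like abundance. Each gene's residual deviance in edgeR's quasi-likelihood fit was divided by the value that the fit expects at its abundance. This ratio was read as an F statistic, here called the edgeR F, with Benjamini-Hochberg adjustment over 13280 genes. It is not edgeR's own F test, which tests coefficients. None of the 10 genes was called at an adjusted p of 0.05, where 75 of 13280 genes were called (0.565%). At an unadjusted p under 0.05 were 3 of the 10 (Slamf6, Slamf1 and Cd5) and 755 of all genes (5.69%). Slamf6, with 2407, 1804 and 2330 counts, had an edgeR p of 0.0221 and an adjusted p of 0.704. Slamf1, with 506, 331 and 357 counts, had an edgeR p of 0.0232 and an adjusted p of 0.720, and Cd5 had a p of 0.0487 and an adjusted p of 0.871. DESeq2's marking of outlying dispersion held none of the 10 genes and 125 of all genes (0.941%). The median coefficient of variation of TPM was 6.98% over the 10 genes and 10.3% over all genes tested. The 10 genes were also the more abundant, with a median of 48.8 TPM against 9.42 TPM over all genes tested. The median edgeR F, which sets a gene against genes of like abundance, was 0.798 over the 10 genes and 0.734 over all genes tested. Replicate 1, highest for Slamf1, also had the highest sums of the lists for T cells, natural killer cells, monocytes and macrophages, and dendritic cells. The sums for neutrophils, mast cells and basophils, and platelets were highest there too. Those for B cells, plasma cells and erythroid cells were highest in replicate 2. The part of any of these cells in the level of Slamf1 was not tested.

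The genes around these receptors were read from a list of partners, chosen with earlier results of these data known, of which 38 of 39 symbols were matched. At 10 TPM or more in all libraries were 29 of the 38, a level that 10.9% of all gene entries reached. Below 1 TPM in every library were 5 of them, and the median of the 38 was 41.2 TPM. Among the highest were the kinase Lck, which phosphorylates the T-cell receptor complex, at 321.4 ± 10.2 TPM, the adaptor Grap2 (GADS) at 166.6 ± 3.19, Prkcq, which encodes protein kinase C theta, at 122.7 ± 0.730, and Csk, the kinase that inhibits Lck, at 122.6 ± 6.84 TPM. Fyn, named here after its value was seen as the kinase recruited by SAP, was at 82.8 ± 2.42 TPM. The SAP relatives Sh2d1b1 and Sh2d1b2, known as EAT-2 adaptors, were at 0.10 and 0.25 TPM, against 18.2 TPM for SAP. Among further SLAM receptors, Slamf7 was at 6.27, 3.41 and 2.74 TPM, Slamf8 at 0.23, 0.04 and 0.08 TPM, and Slamf9 at 0.48, 0.37 and 0 TPM. The CD6 ligands were low in these cells, Alcam at 1.44 ± 0.266 TPM and Cdcp1 at 0.10 ± 0.05 TPM, against 85.3 TPM for their receptor. None of the 33 partners tested for spread was called by edgeR, where 0.565% of all genes tested were called. At an unadjusted edgeR p under 0.05 were 2 of the 33, beside 5.69% of all genes tested. These were Slamf7 (adjusted p = 0.167) and the ubiquitin ligase Cblb, named after its values were seen, at 84.5, 63.4 and 64.5 TPM (adjusted p = 0.190). Slamf7 and Cblb were, like Slamf1, highest in replicate 1. Most of the matched partners were also highest in that library, so this order was not particular to these genes.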

How the data were processed

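Per the README deposited with each sample, the authors derived the gene values and the first transcript values from transcriptome alignments (mm10, GENCODE M21) and the second transcript values directly from reads with an index, and no tool is named there. The deposited tables hold estimated counts and TPM, and the first also FPKM and percent per isoform, per the file headers. Here the second was summed per gene, without spike-ins, phiX174 and entries named by a number.

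The members and lists were chosen with earlier results of these data known. All 10 genes are named, with transcript entries at 5% or more of their gene in either table, and of the partners the other SLAM genes, the CD6 ligands, the 5 highest and 3 lowest (1 of them is not reported here). Gads, another name of Grap2, had no match, and Cd244 was matched to Cd244a through RefSeq's older symbols.

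Exon inclusion is the TPM of entries with an exon over that of entries with or without it. Log2 ratios used no pseudocount. Spread was tested on rounded counts in edgeR 4.0.16 (filterByExpr, TMM, intercept only, robust fit) under R 4.3.3, with DESeq2 1.42.0 as an alternative. Tested on simulated data (13130 genes, changed genes with a mean count of at least 50), it found 95% of 2-fold and 100% of 4-fold changes placed in 1 library, and 7 of its 202 calls were false. The simulation gave every gene the same dispersion. These shares therefore do not give the power of the test on the real libraries, where genes differ in dispersion. Shares used Python 3.11.15. Counting intervals and limits leave out other errors, since PCR copies are not independent. Coordinates are 1-based. Alternatives were the second quantification, posterior mean TPM, FPKM, TPM rescaled to nuclear protein-coding genes, unscaled counts, coding entries only, other thresholds, filters and pseudocounts, and each replicate left out. Cd6 inclusion on coding entries of the second quantification, and Slamf6 exon 7 and proximal end inclusion on unscaled counts, were added after seeing the data.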

Additional observations from a re-analysis of the deposited data

How the results depend on the processing

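Of 353 alternative values over 61 results, 289 kept their direction and side of the threshold or moved by less than the spread between libraries, 61 moved by more, 2 reversed, and 1 count changed by over 1.5 times. The second quantification accounted for 36 of the moved values. Levels rescaled to nuclear protein-coding genes accounted for 10, all upward by construction (Cd2 to 484.9 and Slamf1 to 23.2 TPM). With 1 library left out there were 180 values. Leaving out 1 of 3 libraries cannot move a mean beyond 1 SD, so the levels, shares and inclusions among them say nothing of stability. Log2 ratios were judged by sign, which could turn only where libraries differed in sign, as for Cd48 over Cd84, and it did not. Counts of genes stayed the same. The coding share of Cd244 was 19.0% without replicate 2 and 55.6% without replicate 3, against 37.1%. Cd48 over Cd84 went from 0.08 to between 0.03 and 0.15 on the log2 scale, and Cd84 over Ly9 to 0.05 without replicate 2. Cd48 over Cd84 turned to -0.16 on the log2 scale in the second quantification, and Slamf6 over Cd48 turned to -0.18 on protein-coding entries only, and the cause was not tested. At 50 TPM in place of 10 TPM, 4 of the 10 genes passed. Inclusion of Cd6 exon 5 moved from 73.7% to 84.3% in the second quantification, 83.1% on counts without length scaling, 88.5% on protein-coding entries and 90.7% on both the second quantification and protein-coding entries, and lay between 72.4% and 75.2% with each library left out. The leading Slamf6 entry moved from 39.5% to 35.2% in the second quantification and, by a smaller denominator, to 52.1% on protein-coding entries. No replicate block was fitted because there is 1 group, and ratios between genes were taken within libraries. Counts of 47 to 60 limit what can be said of Cd244, and transcript shares of all genes rest on models, since no junction reads were analysed here.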
